A study of Mus musculus with 12 samples.

Results

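The 10 genes Afmid, Kmo, Kynu, Haao, Acmsd, Qprt, Nadsyn1, Nampt, Nmnat1 and Nmrk1 were taken by name from a count table of 55487 mouse genes. All 10 were present and all passed the filter on low counts in every comparison. The first 7 belong to the de novo route, in which nicotinamide adenine dinucleotide (NAD) is built from tryptophan, and Nampt, Nmnat1 and Nmrk1 belong to salvage, in which NAD is rebuilt from nicotinamide and nicotinamide riboside. RNA sequencing was carried out on mouse kidney, labelled as cortex, in 4 groups of 3 libraries. The study asked how loss of ALR, the mitochondrial sulfhydryl oxidase encoded by Gfer, in proximal tubules changes acute kidney injury after ischemia-reperfusion (I/R).

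The Control mice carried floxed ALR alleles without Cre (labelled WT) and had a sham operation. The KO mice carried the same floxed alleles with a Cre driven by Ggt1, a proximal tubule gene (labelled as ALR knockdown), and also had a sham operation. Mice of the Control-IR and KO-IR groups had these genotypes and had both kidneys clamped for 22 min and were studied 24 h after release of the clamps. All groups were on a C57BL/6 background, which the methods call mixed for the knockout cross. The methods give an age of 6 to 8 weeks. Whole pieces of kidney were sequenced, so cells without Cre contributed to each library. The labels do not tie each library to an animal, and p-values measure the spread between these libraries only.

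Kidney proximal tubule, together with liver, is known as a site of NAD synthesis from tryptophan. Afmid (formamidase), Kmo (kynurenine 3-monooxygenase), Kynu (kynureninase) and Haao (3-hydroxyanthranilate dioxygenase) act in turn to give a semialdehyde that closes to quinolinate. Acmsd removes that semialdehyde from the route, whereas Qprt turns quinolinate into nicotinic acid mononucleotide and Nadsyn1 amidates the resulting dinucleotide to NAD. In salvage, Nampt makes nicotinamide mononucleotide from nicotinamide, Nmrk1 makes it from nicotinamide riboside, and Nmnat1, which also serves the de novo route, adds the adenylyl group.

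Library totals ranged from 12165089 to 23123693 counts, with 20416 to 22210 genes counted at least once. Control libraries 1 and 2 held 22402 and 19755 Xist counts and no Y-linked counts, whereas the other 10 libraries held at most 11 Xist counts and at least 3109 Y-linked counts, so that sex differed within Control and every comparison with Control mixes sex with the condition. The column taken as Control library 3 was matched to its group by name only. Gfer, the targeted gene, was not lower in the knockout groups: its mean was 12.8 ± 1.52 CPM (counts scaled per library with TMM factors; SD, n = 3) in Control, 14.0 ± 3.68 in KO, 17.6 ± 2.34 in Control-IR and 22.0 ± 0.674 in KO-IR. Counts summed over a whole gene need not show the deletion of single exons, and the genotype is therefore used here only as labelled. All 9 proximal tubule markers were counted in every library, and their summed level was 15540 to 16130 CPM in Control, 14360 to 15980 in KO, 4003 to 9868 in Control-IR and 2497 to 3192 in KO-IR.

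In kidneys of sham-operated Control mice, Acmsd and Nampt were the most abundant of the 10 mRNAs per kilobase of exon. Acmsd stood at 52.5 CPM per kb and Nampt at 47.6, with overlapping library ranges. Qprt (32.3), Kmo (32.0), Haao (29.0) and Nmrk1 (27.0) followed, and each overlapped its neighbour in this order. Nadsyn1 (9.35), Kynu (7.78), Nmnat1 (4.95) and Afmid (3.90) formed the low end, and again neighbours overlapped. In KO-IR the order per kb was different: Nampt came first at 38.4 CPM per kb without overlap with Qprt (11.4), and Acmsd came ninth at 1.15, next to Afmid at 1.22, with Kynu last at 0.137.

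**Figure D1:**
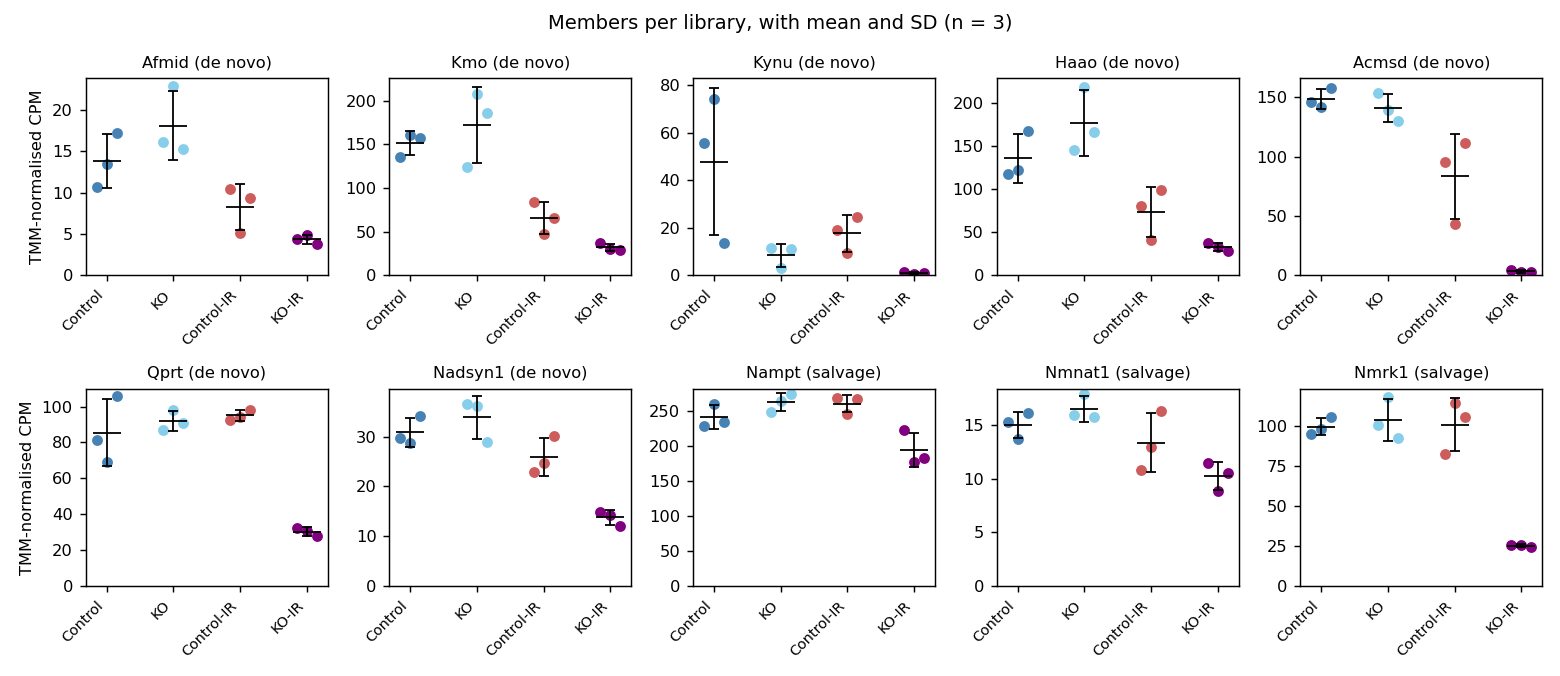
TMM-normalised CPM of each of the 10 genes (vertical axis, linear from 0, separate scale per gene) in the 4 groups. Points are libraries, horizontal bars are means and error bars are SD (n = 3). In KO-IR, 9 of the 10 genes had all 3 libraries below all 3 Control-IR libraries, against 29.1% of all genes, and Nmnat1 overlapped.

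After I/R in Control mice, Kmo fell 2.30-fold and was the member called by the pairwise edgeR fit. Its level was 135, 161 and 157 CPM in Control and 83.5, 47.4 and 65.2 CPM in Control-IR, so that the groups did not overlap. The log2 fold change was −1.20 ± 0.209 (SE) with an adjusted p of 0.0142 (edgeR quasi-likelihood test, Benjamini-Hochberg over 15567 genes). This was 1 of 10 members, against 19.4% of all tested genes called in either direction and 7.97% called lower. As the libraries are of bulk tissue, fewer cells of a type and less RNA per cell cannot be told apart here or below. The call was lost without Control library 1 (adjusted p = 0.0503, edgeR) or Control library 2 (adjusted p = 0.0613, edgeR).

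The other early enzymes lay lower after I/R in Control mice but did not pass this test. DESeq2 called both Haao (adjusted p = 0.0241) and Acmsd (0.0377), as did edgeR in 1 fit to 12 libraries (0.0273 and 0.0394). Haao was also called without a low-count filter. With sex as a covariate the log2 fold change of Haao was −1.19. Sex varied only within Control, so that fit takes the Control level from library 3 alone, the highest for Haao. Haao was 117, 122 and 168 CPM in Control against 80.4, 41.3 and 99.0 in Control-IR (log2 fold change −0.88 ± 0.312, adjusted p = 0.0841, edgeR). Acmsd was 146, 142 and 158 CPM in Control against 95.9, 43.1 and 112 in Control-IR (log2 fold change −0.82 ± 0.315, adjusted p = 0.101, edgeR). Afmid had a log2 fold change of −0.72 ± 0.297 (adjusted p = 0.119, edgeR). Library 2 of Control-IR was the lowest of its group for 5 of the 7 de novo genes. That library also had the lowest summed proximal tubule markers of Control-IR, at 4003 CPM.

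The later steps and salvage had fitted changes nearer to 0 in the same comparison. Qprt had a log2 fold change of 0.16 ± 0.159 and Nadsyn1 of −0.25 ± 0.135. Among the salvage genes the values were 0.12 ± 0.115 for Nampt, −0.17 ± 0.170 for Nmnat1 and 0.02 ± 0.134 for Nmrk1. None of these 5 passed the test, and all 5 overlapped between groups.

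Kynu differed from the rest in how much it varied among Control libraries. It was at 55.6 and 74.3 CPM in libraries 1 and 2, which had no Y-linked counts, and at 13.6 CPM in library 3. The KO libraries lay at 11.4, 2.85 and 10.9 CPM, below all Control libraries, but the log2 fold change of −2.52 ± 0.663 did not pass the test (adjusted p = 0.202, edgeR). Without a low-count filter Kynu was called at −2.52 (adjusted p = 0.013, edgeR). In Control-IR Kynu was at 18.9, 9.24 and 24.5 CPM, which overlapped Control. The log2 fold change of −1.44 ± 0.591 against Control did not pass the test (adjusted p = 0.119, edgeR). Without Control library 3, which left the Control libraries with no Y-linked counts, Kynu was called at −1.87 (adjusted p = 0.03, edgeR).

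Without I/R, no member was called between KO and Control by the pairwise edgeR fit. In this comparison edgeR called 0.0% of 15291 genes, with 2573 at an unadjusted p under 0.05, and DESeq2 called 458 genes. Of the 10 members, Kynu alone had an unadjusted p under 0.05 in edgeR, and DESeq2 called 0 members. Fitted log2 fold changes of the other 9 lay between −0.08 (Acmsd) and 0.39 (Afmid). Without Control library 3, the only Control library with Y-linked counts, 1930 genes were called, among them Kynu (log2 fold change −2.97, adjusted p = 0.00254, edgeR) and Haao (0.56, adjusted p = 0.0447, edgeR).

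Between KO-IR and KO all 10 members fell. Acmsd, the branch enzyme that diverts carbon from NAD, was at 153, 139 and 130 CPM in KO and at 4.62, 2.31 and 2.84 CPM in KO-IR, a 45.6-fold decrease (log2 fold change −5.51 ± 0.192, adjusted p = 3.63e-08, edgeR). The KO-IR libraries lay far below those of KO, although each still held 44 to 54 Acmsd reads. Kynu fell 10.4-fold (−3.37 ± 0.538), from 2.85 to 11.4 CPM to 0.623 to 1.20 CPM, and these lowest values rest on 11 to 14 reads a library. Kmo, Haao and Afmid fell 5.48-, 5.40- and 4.18-fold. The following enzymes fell less: Qprt by 3.07-fold (−1.62 ± 0.0916) and Nadsyn1 by 2.48-fold (−1.31 ± 0.133).

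Salvage genes fell as well in the knockout after I/R, by unequal amounts. Nmrk1 was at 101, 118 and 92.7 CPM in KO and at 25.5, 25.6 and 24.1 CPM in KO-IR, a 4.16-fold decrease (log2 fold change −2.06 ± 0.104, adjusted p = 1.68e-07, edgeR). Nmnat1 fell 1.63-fold (−0.70 ± 0.140) and Nampt 1.36-fold (−0.44 ± 0.103). The Nmrk1 decrease was thus as large as that of Afmid in the de novo route. All 10 members were lower without overlap, against 35.0% of all genes, and all 10 were called lower, against 32.7% of all genes (65.5% in either direction). The median log2 fold change was −2.06 over the members and 0.01 over the 15155 genes tested. All 10 calls were kept with any single library left out.

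**Figure D2:**
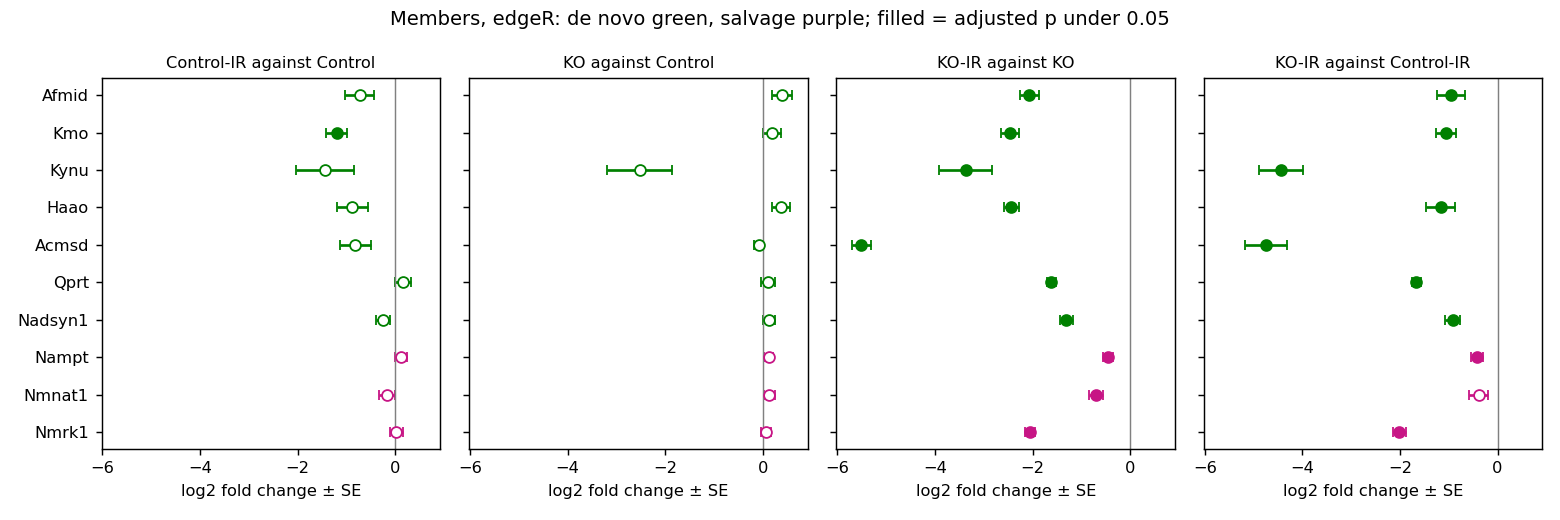
Fitted log2 fold changes (horizontal axis) with their SE for each gene in 4 comparisons, n = 3 libraries a group. Filled points passed an adjusted p of 0.05 in edgeR, with the de novo genes in green and salvage in purple. In both panels with KO-IR, Acmsd and Kynu lie farthest to the left, and Nampt and Nmnat1 lie nearest to 0.

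The direct comparison of injured kidneys, KO-IR against Control-IR, involves libraries that all had Y-linked counts. In it 9 of 10 members were called lower, against 24.4% of all genes and 46.9% called in either direction. All 10 were fitted lower. The same 9 were lower without overlap, against 29.1% of all genes. The median log2 fold change over the members was −1.11, and that over all 15281 genes was −0.0049. This comparison shares its KO-IR libraries with the preceding one, so both sets of values are not independent.

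The early de novo enzymes differed in how far they fell in KO-IR against Control-IR. Kynu dropped 21.7-fold (log2 fold change −4.44 ± 0.446, adjusted p = 0.000373, edgeR), from 18.9, 9.24 and 24.5 CPM to 1.20, 0.623 and 0.709 CPM. Haao dropped 2.25-fold, with 37.7, 33.2 and 28.3 CPM in KO-IR. Kmo dropped 2.08-fold, with 36.6, 30.0 and 28.6 CPM in KO-IR. Kynu is thus the enzyme of this stretch with the largest fitted change, and the ranges of Kmo and Haao lay just under those of Control-IR, whose lowest libraries stood at 47.4 and 41.3 CPM. Afmid dropped 1.93-fold (adjusted p = 0.0281, edgeR), from 10.4, 5.12 and 9.36 CPM to 4.36, 4.81 and 3.80 CPM. Its call was kept in only 1 of 6 fits with a library left out. Exons of Afmid overlap those of Tk1 on the opposite strand, a gene of dividing cells with up to 413 counts, and reads of the pair cannot be told apart without strand, so the Afmid values are uncertain. The Haao call was lost without KO-IR library 4 (adjusted p = 0.0618, edgeR).

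At the branch point and below it, Acmsd fell farthest. It went from 95.9, 43.1 and 112 CPM in Control-IR to 4.62, 2.31 and 2.84 CPM in KO-IR, a 26.7-fold decrease (log2 fold change −4.74 ± 0.428, adjusted p = 0.000275, edgeR). Qprt, the next enzyme on the path to NAD, went from 92.5, 94.4 and 98.2 CPM to 32.5, 30.3 and 27.6 CPM, a 3.17-fold decrease (−1.66 ± 0.0982, adjusted p = 8.24e-05, edgeR). Both groups were tight for Qprt and wide apart. Nadsyn1, which completes the route, went from 22.96, 24.6 and 30.2 CPM to 14.9, 14.3 and 12.1 CPM, a 1.89-fold decrease (adjusted p = 0.00224, edgeR). The ratio of Acmsd to Qprt per kb was 1.66 ± 0.255 (SD, n = 3) in Control, 1.44 ± 0.182 in KO, 0.818 ± 0.342 in Control-IR and 0.1001 ± 0.0311 in KO-IR. Its 3 KO-IR values, 0.133, 0.0713 and 0.0961, lay under the lowest Control-IR value of 0.427, which came from library 2.

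The salvage genes split in the same comparison. Nmrk1, the riboside kinase, went from 82.3, 114 and 106 CPM in Control-IR to 25.5, 25.6 and 24.1 CPM in KO-IR, a 4.03-fold decrease (log2 fold change −2.01 ± 0.132, adjusted p = 0.000118, edgeR). Nampt, the enzyme held to limit the rate of nicotinamide salvage, went from 268, 246 and 267 CPM to 222, 177 and 182 CPM, a 1.35-fold decrease (−0.43 ± 0.122, adjusted p = 0.0214, edgeR). The Nampt call was kept in 3 of 6 fits with a library left out. It was lost without Control-IR library 1 (adjusted p = 0.0636, edgeR) and without KO-IR library 3 (0.0908) or 4 (0.0917). Nmnat1 was at 10.8, 13.0 and 16.3 CPM in Control-IR and at 11.5, 8.86 and 10.5 CPM in KO-IR, with overlap (−0.39 ± 0.191, adjusted p = 0.128, edgeR). Scaled by total counts, which shifts the median of all genes by −0.21, it was called at −0.59 (adjusted p = 0.0341, edgeR). The ratio of Nmrk1 to Nampt per kb was 0.568 ± 0.0496 (SD, n = 3) in Control, 0.544 ± 0.0761 in KO, 0.534 ± 0.108 in Control-IR and 0.179 ± 0.0206 in KO-IR. It was thus close in 3 groups and lower in the fourth, where the highest library reached 0.198 against a lowest of 0.422 in Control-IR.

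In KO-IR against Control-IR, the median log2 fold change was −1.17 over the de novo genes and −0.43 over the salvage genes. Nampt and Nmnat1 had the smallest fitted changes of the 10, whereas the fitted decrease of Nmrk1 was larger than that of 5 of the 7 de novo genes. Summed per kb, the 7 de novo mRNAs stood at 167, 176, 108 and 31.9 CPM per kb (means of Control, KO, Control-IR and KO-IR), and the 3 salvage mRNAs at 79.6, 85.5, 83.2 and 48.5 CPM per kb. A score of mean log2(CPM + 0.5) over the de novo genes minus that over the salvage genes was −0.17, −0.45, −0.89 and −1.90 in the 4 groups. The direction of this score depends on its scale: with each gene standardised first, the difference of KO-IR from Control-IR was 0.28 and that from KO was 0.0276, and no order of the routes is read from it.

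Genotype and I/R were then tested together over all 12 libraries. The change with I/R differed between KO and Control for 8 of 10 members, each toward a lower level in KO-IR, against 16.4% of all 16168 genes called lower and 30.6% called in either direction. Among the called members, the interaction was largest for Acmsd (log2 −4.65 ± 0.436, adjusted p = 5.17e-05, edgeR), Nmrk1 (−2.07 ± 0.179, adjusted p = 4.09e-05, edgeR) and Qprt (−1.76 ± 0.189, adjusted p = 0.000104, edgeR). Nmrk1 and Qprt overlapped between Control-IR and Control but fell 4.16- and 3.07-fold with I/R in KO. Haao, Afmid, Kmo, Nadsyn1 and Nampt gave −1.54, −1.33, −1.24, −1.05 and −0.55. Kynu (−1.92, adjusted p = 0.164, edgeR) and Nmnat1 (−0.52 ± 0.222, adjusted p = 0.0935, edgeR) were not called. With sex as a covariate the interaction was −1.23 for Haao, −1.18 for Kmo, −1.01 for Afmid and −3.74 for Kynu. Sex varied only within Control, so that fit takes the Control level from library 3 alone. It cannot tell sex from the other traits of that library.

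Proximal tubule markers moved with these genes. In KO-IR against Control-IR, 6 of 9 of them were called lower, against 24.4% of all genes (46.9% in either direction). All 9 were fitted lower, with a median log2 fold change of −1.42. Among those called were the endocytic receptor Cubn (−2.04 ± 0.220) and the dicarboxylate transporter Slc13a3 (−2.77 ± 0.222). The glucose transporter Slc5a2 was not called (−0.13 ± 0.259). With I/R in KO, 9 of 9 were called lower, against 32.7% of all genes. With I/R in Control, 4 of 9 were called lower, against 7.97% of all genes. There 8 of 9 were fitted lower, with a median log2 fold change of −0.96. To set the members beside these markers, each level was divided by the summed marker CPM of its library, a scale chosen after the data were seen. Per 1000 marker CPM, Acmsd was 9.35 in Control, 9.38 in KO, 11.8 in Control-IR and 1.11 in KO-IR (means, n = 3). Kmo on that scale was 9.54, 11.4, 9.99 and 11.0, and Haao was 8.54, 11.7, 10.5 and 11.5. Acmsd thus lay lower without overlap in KO-IR also on the marker scale, whereas Kmo and Haao overlapped. Since the marker sum itself fell, most genes lay higher on this scale. Of the 10 members, 3 lay below Control-IR without overlap (Kynu, Acmsd and Nmrk1), against 3.88% of all genes, and 1 lay above (Nmnat1), against 60.0%. In KO-IR against KO, Acmsd alone lay below, against 2.69% of all genes, and 5 members lay above, against 89.8%. In Control-IR against Control, 0 members lay below, against 0.874% of all genes, and 6 lay above, against 80.1%. Whether loss of tubule RNA accounts for the decreases was not tested.

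**Figure D3:**
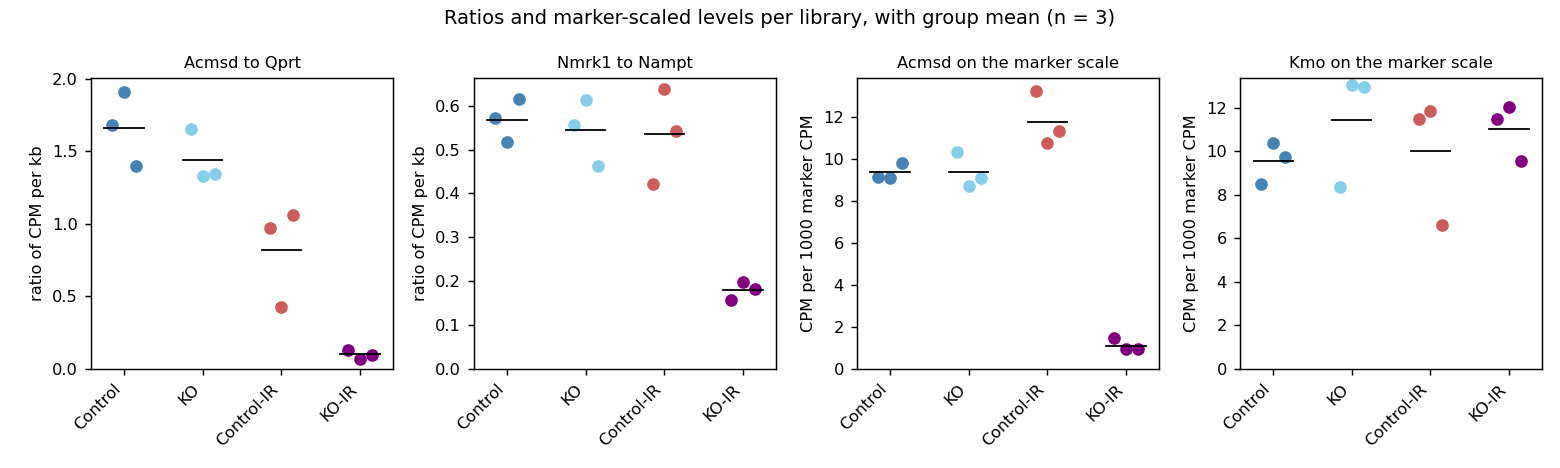
From left to right, the Acmsd to Qprt and Nmrk1 to Nampt ratios of CPM per kb, and Acmsd and Kmo per 1000 summed CPM of 9 proximal tubule markers, in the 4 groups. Points are libraries and lines are group means (n = 3), with linear axes from 0. The KO-IR libraries are the lowest in the first 3 panels, and in the Kmo panel they lie among the other groups.

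Markers of other cells were read in the same libraries. Macrophages, which also carry Kmo and Kynu, were represented by 6 markers, all counted in every library. Their summed level was 81.3 to 98.7 CPM in Control, 84.8 to 87.7 in KO, 117 to 219 in Control-IR and 54.6 to 61.6 in KO-IR. In KO-IR against Control-IR, 5 of the 6 fell, with Adgre1 at −4.37 ± 0.381, and Cd68 rose by 0.76 ± 0.184. Neutrophil markers summed to 8.79 to 39.5 CPM in Control-IR and to 43.5 to 66.4 in KO-IR, where 2 of 4 were called higher. The tubular injury markers Havcr1, Lcn2 and Krt20 summed to at most 7.28 CPM in sham-operated groups, to 552 to 2617 CPM in Control-IR and to 4800 to 6312 CPM in KO-IR. Further marker lists were read in KO-IR against Control-IR, where 24.4% of all genes were called lower. Red cell markers were called lower in 3 of 3 and thick ascending limb markers in 2 of 3. Fibroblast and pericyte markers were called lower in 2 of 4 and podocyte markers in 1 of 3. Of 4 principal cell and 3 intercalated cell markers, 0 were called. Endothelial markers were called higher in 3 of 4 and hepatocyte markers in 2 of 3 tested. Of 3 distal convoluted tubule markers 1 was called higher and 1 lower, against 46.9% of all genes called in either direction. The part of these cells in the members' values was not tested.

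The upstream sequence of 8 of the 10 genes was read from a RefSeq promoter table (GRCm38.p6), in which Kynu had no entry. The salvage genes Nampt, which fell least among the called genes, and Nmrk1, which fell most of the salvage genes, are shown, on the plus strand from 5′ to 3′ and ending at the transcript start or, for Nmrk1, before the first annotated exon. Capitals mark ACGTG on either strand, a form of the core of the hypoxia response element. Nothing is in capitals where no searched motif was found. The form GCGTG was not searched, and on either strand it stands in small letters in both windows.

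Nampt, chr12:32820085-32820334, within the first intron of a longer Nampt transcript: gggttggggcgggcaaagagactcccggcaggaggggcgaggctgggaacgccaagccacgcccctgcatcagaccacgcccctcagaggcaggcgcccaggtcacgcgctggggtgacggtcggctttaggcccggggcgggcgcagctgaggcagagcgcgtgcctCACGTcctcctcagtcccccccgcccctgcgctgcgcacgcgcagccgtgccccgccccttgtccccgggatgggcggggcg
Nmrk1, chr19:18631766-18631949, upstream of the first exon: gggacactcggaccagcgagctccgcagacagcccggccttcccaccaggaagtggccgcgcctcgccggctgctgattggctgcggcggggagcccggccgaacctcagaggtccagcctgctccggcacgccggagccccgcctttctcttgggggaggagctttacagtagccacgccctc

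Base composition was taken over the whole 250 bases before each RefSeq start, which for Nmrk1 runs past the 184 bases shown. The 250 bases before the Nampt start held 75.6% G+C and 27 CpG, and those before Nmrk1 69.2% and 21 CpG, against medians of 52.0% and 6 CpG over 27025 genes. Kmo had 42.8% and 5 CpG, and Nadsyn1 and Nmnat1 had 66.0% and 69.2% with 23 and 24 CpG. The hypoxia core form ACGTG was found in the 250 bases of Afmid (−12 to −8 from the start) and Nampt (−82 to −78). It was found in 16.6% of all 32851 listed windows. None of the 8 genes held the HNF4 site CAAAGTCCA (0.384% of windows), the HNF1 palindrome (0.00913%), the AP-1 sites TGACTCA or TGAGTCA (4.46%), the CREB site TGACGTCA (1.55%) or the E-box CACGTG, which contains the hypoxia core (6.02%), on either strand. These matches describe the letters of the windows only.

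Other genes of NAD metabolism moved both ways. Tryptophan enters the route through Tdo2, Ido1 or Ido2, and of these Tdo2 had at most 1 read and Ido1 at most 6 in any library, so that neither was tested. Ido2 was measured at 7.34, 7.53 and 10.9 CPM in Control and 11.2, 18.9 and 14.7 in KO. It fell with I/R in KO (−3.53 ± 0.287, adjusted p = 3.53e-06, edgeR) to 1.20, 1.74 and 0.838 CPM. It was also lower than in Control-IR (−1.57 ± 0.476, adjusted p = 0.0275, edgeR), although the groups overlapped. Ppargc1a, a coactivator known to promote the de novo route in kidney tubules, fell with I/R in Control (−1.02 ± 0.237) and in KO (−1.58 ± 0.102), and KO-IR lay below Control-IR (−0.84 ± 0.226, adjusted p = 0.0179, edgeR).

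Of the 5 enzymes on side branches of the kynurenine route, 3 were called higher and 1 lower in KO-IR against Control-IR. In that comparison 46.9% of all genes were called in either direction and 24.4% lower. Kyat1 and Got2, aminotransferases that can take up kynurenine, rose by 0.79 ± 0.139 and 0.49 ± 0.107. Aldh8a1, which acts on the semialdehyde branch that starts with Acmsd, rose by 0.73 ± 0.220, from 195, 133 and 234 CPM to 375, 274 and 291 CPM. Kyat3 fell (−0.99 ± 0.271). In KO-IR against KO, Aldh8a1 was not called (−0.27, adjusted p = 0.0921, edgeR), and with I/R in Control it fell (−0.87 ± 0.216, adjusted p = 0.0337, edgeR).

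Of the 5 other salvage and Preiss-Handler genes, 3 were tested, and Nmrk2 had no read in any library. Pnp, the phosphorylase that splits nicotinamide riboside, was at 24.4, 19.7 and 22.5 CPM in Control-IR and at 61.0, 53.0 and 45.7 CPM in KO-IR, a rise of 1.25 ± 0.141 on the log2 scale (adjusted p = 0.000543, edgeR). Nmnat3, the mitochondrial adenylyltransferase, rose by 0.69 ± 0.136. Naprt, which starts salvage of nicotinic acid, fell (−0.86 ± 0.184). The rise of Pnp stood beside the 4.03-fold decrease of Nmrk1, the other enzyme that uses the riboside.

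Among NAD consumers, 1 of 7 sirtuins was called higher and 2 were called lower in KO-IR against Control-IR. Sirt3, the main mitochondrial deacetylase, went from 43.5, 22.2 and 53.0 CPM to 21.7, 18.9 and 19.6 CPM (−0.99 ± 0.288, adjusted p = 0.0234, edgeR). Sirt4 fell (−0.72 ± 0.167) and Sirt6 rose (0.73 ± 0.184). Of 11 tested PARP and glycohydrolase genes, 4 were called lower and 2 higher. These counts lie near the 46.9% of all genes called in this comparison and are no result about the lists. Parp1, the DNA damage polymerase that uses most NAD of its family, fell (−1.05 ± 0.131), as did Parp14 (−1.61 ± 0.215) and Parp9 (−0.95 ± 0.151), and Parp4 rose (0.76 ± 0.115). With I/R in KO, the nicotinamide clearance genes Nnmt (1.66 ± 0.485) and Aox1 (1.49 ± 0.356) rose and Cyp2e1 fell (−1.50 ± 0.241). There 65.5% of all genes were called. Nnmt also rose with I/R in Control (1.55 ± 0.366), and no clearance gene was called in KO-IR against Control-IR. Nnmt and Aox1 were low, at most 1.98 CPM in any library. Of the 7 genes of NADP synthesis, repair and carriers, 5 were called lower in KO-IR against KO, where 32.7% of all genes were called lower and 65.5% in either direction. In KO-IR against Control-IR Nnt alone of them was called, higher by 1.04 ± 0.330 at 0.696 to 2.14 CPM. Nnt is known to be partly deleted in some C57BL/6 substrains. Slc22a13, a transporter of nicotinate, fell with I/R in Control (−2.10 ± 0.441) and in KO (−2.56 ± 0.355).

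**Figure D4:**
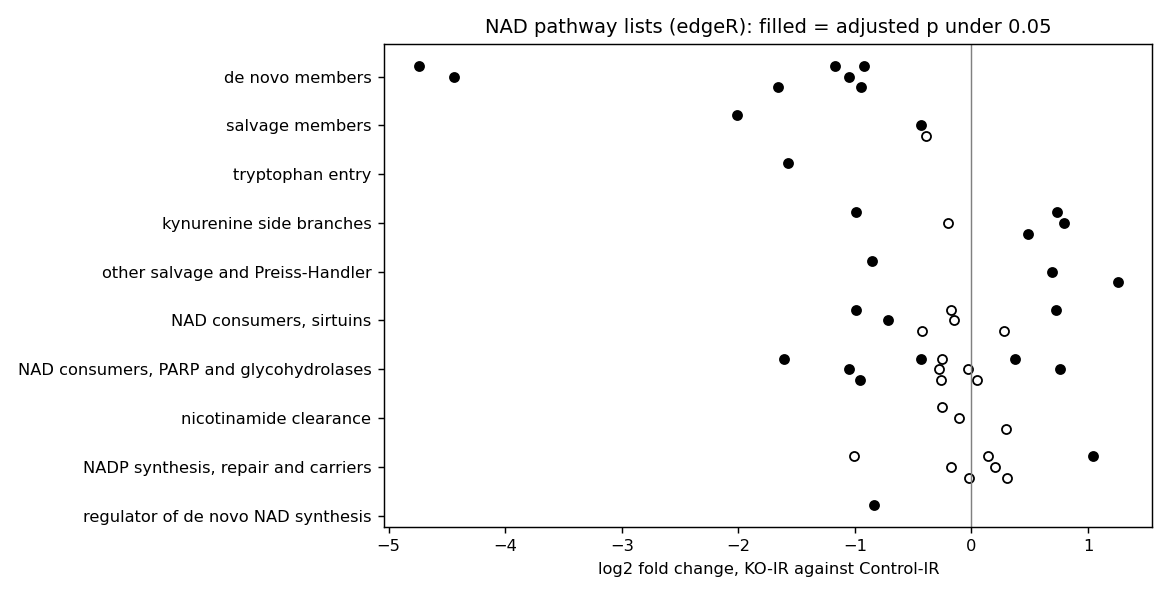
Log2 fold change in KO-IR against Control-IR (horizontal axis, n = 3 libraries a group) of the tested genes of each NAD pathway list (rows). Each point is a gene, filled where its adjusted p in edgeR was under 0.05. The 7 de novo genes lie to the left of 0 and are filled, whereas the side branches, the other salvage genes and the consumers lie on both sides.

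Genes whose pattern over the 12 libraries was most like that of a member were sought among 10730 genes outside the NAD lists, as a description, with Pearson r of log2 CPM. The libraries share 4 group means, so high values are common. Acmsd was most like Slc13a3 (r = 0.995) and Slc7a7 (0.994), both transporters of tubule epithelium. Haao was most like Shmt2 (0.995), Qprt like Tbc1d19 (0.991), Nmrk1 like Keg1 (0.990), Kmo like Iah1 and Enpp5 (0.988 each), and Nadsyn1 like Abcb8 and Slc30a9 (0.986 each). Afmid was most like Gpx1 (0.984) and Kynu like Oat (0.980). Nmnat1 (Mfn2, 0.973) and Nampt (Tfb1m, 0.947) had the least close partners. Slc13a3 is also among the 9 proximal tubule markers used above.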

How the data were processed

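The deposited values were whole-number counts per gene, which the authors made from reads of 12 kidney libraries. The submitters' processing notes name HISAT2 2.0.4 and the mm10 genome, and the counting program and annotation are not given in the sources used here. Of 55487 gene IDs, 55227 were found in GENCODE M21 (GRCm38), which gave positions, exon lengths and overlaps. Groups were taken from the labels. edgeR 4.0.16 in R 4.3.3 was applied with filterByExpr, TMM scaling, the quasi-likelihood test and Benjamini-Hochberg adjustment over all tested genes, with a call at an adjusted p under 0.05, to the 6 libraries of each pair of groups and to all 12 for the interaction. SE was the log2 fold change divided by the square root of F. An exact permutation of 3 against 3 libraries cannot go below p = 0.1 and was not used. Levels are CPM with TMM scaling, and with total-count scaling the median log2 fold change of all genes was 0.11 in Control-IR against Control, −0.14 in KO against Control, −0.21 in KO-IR against Control-IR and −0.10 in the interaction, against −0.017 to −0.0049 with TMM. Alternatives were DESeq2 1.42.0, other scalings and filters, sex as a covariate, a replicate block, a single fit and leaving out each library. The code was tested on simulated data. The members, gene lists, markers and tests were chosen with earlier results of these data known. Members were all named, and of other NAD lists at most 4 called genes per comparison with the largest changes, plus genes a sentence turns on. The windows shown and the marker scale were chosen after values were seen, and the upstream window of Acmsd is not reported here.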

Additional observations from a re-analysis of the deposited data

Results flagged for a closer look

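The change with I/R differed between KO and Control, by the edgeR interaction over 12 libraries, for 8 of the 10 members: Afmid (log2 −1.33), Kmo (−1.24), Haao (−1.54), Acmsd (−4.65), Qprt (−1.76), Nadsyn1 (−1.05), Nampt (−0.55) and Nmrk1 (−2.07). Among the other NAD genes it differed downward for Ido2 (−2.35), Naprt (−0.82), Sirt3 (−1.13), Sirt4 (−0.76), Parp1 (−1.04) and Parp10 (−0.70). It differed upward for Got2 (0.56), Nmnat3 (0.62), Pnp (1.23) and Parp4 (0.65). In the same test 30.6% of all genes were called. The contrast includes the Control group, whose libraries differ in sex, and the part of sex was tested only by the covariate fit.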

How the results depend on the processing

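Over the fold changes of the 10 members, 689 refits kept the direction and the side of the threshold, 21 gained a call, 25 lost one and 15 reversed, and the cause was not tested. In KO-IR against KO all 140 refits of the members were kept. Members called in Control-IR against Control were 3 by DESeq2 (2164 genes higher and 1882 lower) and 2 without a low-count filter (1969 and 1403). They were 3 in 1 fit to 12 libraries, which called 4938 genes. In KO against Control, all genes called were 1 with total counts, 458 by DESeq2 and 388 without the filter, which called 1 member. With sex as a covariate the interaction called 3233 genes. The replicate block, although numbers did not pair libraries (12 pairs, median r −0.0199, 1 over 0.1), gave 4, 3, 4 and 5 members called in Control-IR against Control, KO against Control, KO-IR against Control-IR and the interaction, with 1971 genes higher and 1641 lower in the first and 1378, 1683 and 3215 called in the last 3. With libraries left out, members called ranged from 0 to 2 in Control-IR against Control, 0 to 2 in KO against Control, 6 to 9 in KO-IR against Control-IR and 6 to 8 in the interaction. All genes called ranged from 379 to 4061, 0 to 1930, 4918 to 7509 and 3622 to 5509. The lowest of the first range came without Control library 1, and 413 and 833 genes without Control library 2 and Control-IR library 1.

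In every comparison with Control, the fit with sex as a covariate takes the Control level from library 3 alone. Reversed by it in Control-IR against Control were Kynu (0.37), Qprt (−0.15) and Nmrk1 (−0.065). With libraries left out, Nmrk1 ranged there from −0.063 to 0.14. Reversed in KO against Control were Qprt (−0.011), Nampt (−0.0042) and Nmrk1 (−0.066) with total counts, Acmsd (0.020) with the replicate block, and Qprt (−0.20), Nadsyn1 (−0.014), Nmrk1 (−0.021) and Gfer (−0.035) with sex as a covariate. With libraries left out, Qprt ranged there from −0.026 to 0.29, Nmrk1 from −0.039 to 0.13 and Gfer from −0.034 to 0.33, and Gfer in the interaction from −0.0036 to 0.36. None of these values was called. The de novo minus salvage score difference was 0.0276 (against KO) and 0.28 (against Control-IR) when standardised, and −1.14 against KO without Nampt. Per tubule marker CPM, 1 and 3 members lay below without overlap against KO and Control-IR. Total counts moved the calls in Control-IR against Control from 1778 higher and 1241 lower to 2346 and 766, those in KO-IR against Control-IR from 3444 higher and 3725 lower to 1978 and 5080 and those of the interaction from 2305 and 2648 to 1591 and 2997. Kynu values in KO-IR rest on 11 to 14 reads a library.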

Other observations

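Besides Kynu, 2 other genes of tryptophan and nicotinamide metabolism differed widely among the Control libraries, and they were chosen after their values were seen. Aadat, the mitochondrial kynurenine aminotransferase, was at 1722 and 1695 CPM in Control libraries 1 and 2, which had no Y-linked counts, and at 515 CPM in library 3. The KO libraries, all with Y-linked counts, lay at 362, 498 and 422 CPM. Cyp2e1, a cytochrome P450 that can oxidise nicotinamide, went the other way, at 119 and 190 CPM in Control libraries 1 and 2 and 1454 CPM in library 3, with 1116, 2162 and 1762 CPM in KO. Sex and individual variation cannot be told apart with these 3 libraries.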
